A study of Caenorhabditis elegans with 36 samples.

Results

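The C-type lectin genes of *Caenorhabditis elegans*, named clec followed by a number, were followed through adult life with and without RNAi of *cco-1*. Members were all rows of the gene table whose symbol is clec and a number and that reached 1 CPM (reads of a gene scaled to 1000000 counted reads) in at least 3 of the 36 libraries. The gene table held 196 clec rows among 18949 genes, of which 74 did not meet the rule and all the others were kept as members. The rule used no contrast between groups. The libraries came from wild-type N2 worms, whole animals, fed from the first larval stage on bacteria for RNAi at 20 °C. In the *cco-1* RNAi groups 50% of the bacteria carried the *cco-1* clone and 50% the empty vector (ev), and in the ev groups 100% carried the empty vector. Each treatment was harvested on every other day from day 1 to day 11 of adulthood, with 3 replicate populations per group, giving 12 groups. Each population held many pooled worms, so the values are averages over animals and tissues.

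C-type lectins carry a fold that in its classical form binds sugars with the help of calcium. Nematodes have an unusually large set of them, most predicted to be secreted, and many are made in the intestine, where a subset is induced by bacterial infection and used as a readout of innate immunity. Others are made in the germ line or in other tissues. *cco-1* encodes a subunit of cytochrome c oxidase, complex IV of the respiratory chain, and its partial knockdown is a standard way to slow respiration and extend lifespan.

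The targeted gene was lower at every age: *cco-1* averaged 185, 60.5, 85.7, 85.2, 83.5 and 89 CPM at days 1 to 11 under *cco-1* RNAi, against 275, 181, 157, 156, 128 and 148 CPM in ev. No library held the same values as another, and library sums lay between 916765 and 953972 CPM after the normalisation the authors applied. Read depth is not known from these values. The libraries of *cco-1* RNAi at days 9 and 11 spread more than the others: the median SD of a member on the log2 scale was 0.174 at day 9 and 0.157 at day 11, against 0.0794 to 0.127 in the other 4 *cco-1* RNAi groups and 0.0907 to 0.116 in the 6 ev groups. In both of these groups the library of replicate 2 was lowest for most members (81 at day 9 and 72 at day 11), and that of replicate 1 was highest for most (65 and 68). The counts of called members at these ages, and some single genes, are therefore also given without replicate 2. Leaving it out raises the *cco-1* RNAi mean of most members, so it does not test whether their higher levels would weaken.

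The members covered a wide range of levels. Over the 36 libraries the reads fell most on *clec-63*, and also per kilobase of exon *clec-63* led with 794 CPM per kb, followed by *clec-87* (754), *clec-50* (306), *clec-1* (251), *clec-88* (202), *clec-91* (161) and *clec-150* (134). By contrast 51 members stayed below 5 CPM in every group, and 52 reached 10 CPM in at least 1 group. The proteins annotated for the members had a median of 360 residues, from 153 to 3514. On genome build WBcel235 the genes lay on all 6 chromosomes, with 34 each on IV and V, 26 on II, 13 on I, 12 on III and 3 on X. 5 members (*clec-44*, *clec-152*, *clec-154*, *clec-155* and *clec-236*) are annotated as pseudogenes. The counting did not use strand, so reads from the 25 members whose exons overlap those of another gene cannot be told apart from reads of that neighbour. Among the genes named below this touches *clec-87*, *clec-88*, *clec-91*, *clec-266*, *clec-85*, *clec-190*, *clec-51*, *clec-83*, *clec-82*, *clec-60*, *clec-86*, *clec-264*, *clec-97*, *clec-119* and *clec-165*.

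**Figure D1:**
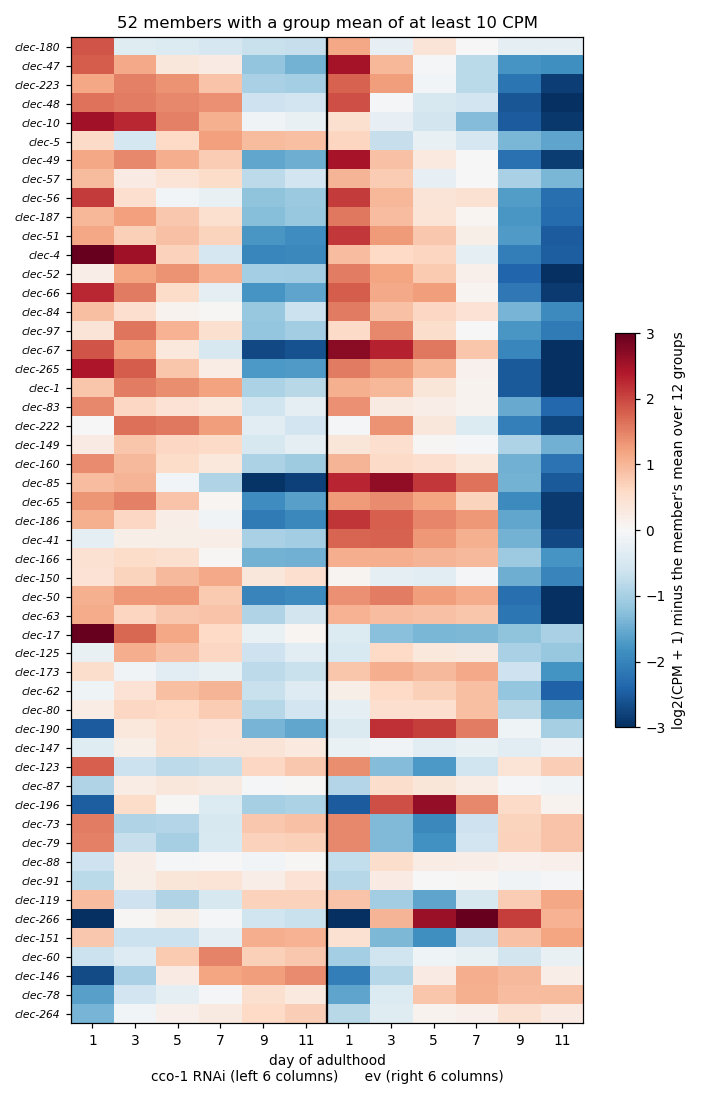
Mean log2(CPM + 1) of each group minus the member's mean over the 12 groups (colour), for the 52 members that reached 10 CPM in a group (rows, ordered by when in adulthood their level in ev was centred), with the 6 ages of *cco-1* RNAi on the left and the 6 ages of ev on the right. Most rows turn blue at days 9 and 11, more deeply in ev than in *cco-1* RNAi, while a few rows at the bottom, such as *clec-266* and *clec-146*, are lowest at day 1.

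The summed lectin CPM lay in a narrow range up to day 7 and was lower at days 9 and 11. The members summed to 5170, 5420, 5370, 5080, 2610 and 2890 CPM in order of day (1, 3, 5, 7, 9, 11) under *cco-1* RNAi, and to 5770, 6370, 5720, 5350, 2180 and 1740 CPM in ev. At day 11 the 3 libraries of *cco-1* RNAi summed to 3310, 2513 and 2833 CPM, all above the ev range of 1720 to 1760 CPM, whereas at days 1 to 7 the mean of *cco-1* RNAi was the lower one. The number of members with a mean of at least 1 CPM was 93 under *cco-1* RNAi and 67 in ev at day 11, and 99 under *cco-1* RNAi and 103 in ev at day 1. In RNA from whole worms, fewer cells of a type and less RNA per cell cannot be told apart.

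To compare *cco-1* RNAi with ev at each age, all genes that passed the same filter (15713) were fitted together with limma on log2(CPM + 1), and a gene was called when its log2 fold change passed 0.5 in size with a Benjamini-Hochberg adjusted p under 0.05. At day 1, 8 members were higher and 26 lower under *cco-1* RNAi, where 4.63% of all genes tested were called higher and 4.46% lower. At day 3 the counts were 15 higher and 22 lower (9.36% and 7.92% of all genes), at day 5, 43 higher and 24 lower (16.7% and 16.6%), and at day 7, 31 higher and 19 lower (11.6% and 13%). By day 9, 33 members were higher and 7 lower (9.44% and 8.69% of all genes), and at day 11, 58 were higher and 7 lower (15.1% and 13.3%). As shares of the members, those higher made up 6.56% at day 1 and 47.5% at day 11, and those lower 21.3% at day 1 and 5.74% at day 11. The median log2 difference of the members was -0.07 at day 1 and 0.47 at day 11, beside -0.01 and -0.08 over all genes tested. Without replicate 2 of *cco-1* RNAi, 44 members were higher and 8 lower at day 9, and 58 higher and 9 lower at day 11. Leaving out 1 library at a time, of either treatment, gave 27 to 44 members higher at day 9 and 57 to 60 at day 11. Across the 6 ages, 98 members were called at least once, 24 of them in both directions at different ages, and 24 never. These are 80.3%, 19.7% and 19.7% of the members, beside 55.8%, 4.44% and 44.2% of all genes tested. The rule on low levels was met through *cco-1* RNAi libraries alone by 3 members and through ev libraries alone by 9, and for those 12 it favours a difference in that direction.

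**Figure D2:**
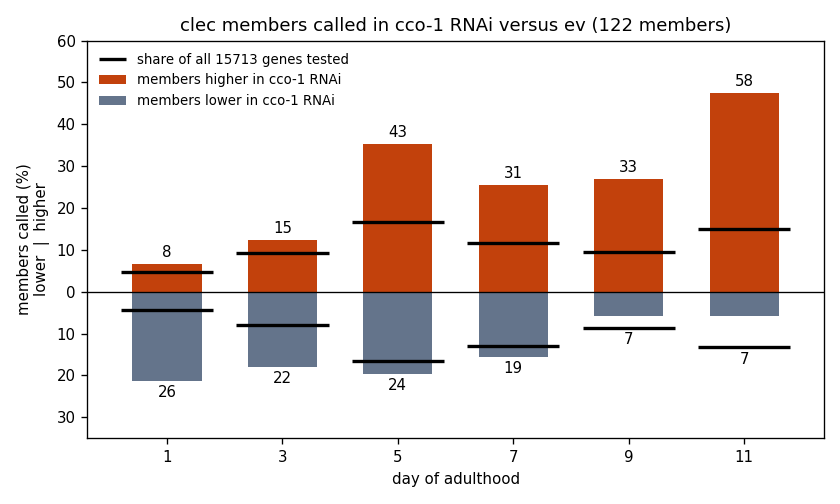
Share of the members called higher (upward bars) and lower (downward bars) in *cco-1* RNAi than in ev at each day of adulthood, in percent, with the number of members at each bar and, as black lines, the share of all genes tested that were called in that direction. The downward bar holds 26 members at day 1 and 7 at day 11, and the bar of higher members is tallest at day 11 with 58.

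The difference at day 11 was largest in *clec-63*, the member with the most reads. It had 714, 372 and 511 CPM under *cco-1* RNAi at day 11, against 56.6, 77.6 and 66.5 CPM in ev, a log2 difference of 2.93 ± 0.18 (SE; adjusted p = 8.7e-13, limma). All 3 libraries of *cco-1* RNAi lay above all 3 of ev, and the difference was 3.17 without replicate 2. At day 7 the same gene had 1297, 1379 and 1379 CPM under *cco-1* RNAi, against 1399, 1352 and 1268 CPM in ev, with overlapping libraries. It was not called at days 1 to 7 and was called at day 9 (1.28 ± 0.18, adjusted p = 2.4e-06).

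Several other well-expressed lectins differed in the same way at day 11. *clec-50* had 78.3, 32 and 53.7 CPM under *cco-1* RNAi, against 16.5, 16.1 and 14.6 CPM in ev, and *clec-1* had 110, 45.6 and 79.3 CPM, against 13.1, 13.4 and 13.9 CPM. In both genes replicate 2 of *cco-1* RNAi was the lowest of its group and still above every ev library. *clec-150* had 234, 154 and 201 CPM under *cco-1* RNAi, against 33.2, 36 and 32.8 CPM in ev, and unlike *clec-63* it had already been higher at day 3. The log2 differences at day 11 were 1.65 ± 0.22 for *clec-50*, 2.37 ± 0.21 for *clec-1* and 2.48 ± 0.11 for *clec-150* (SE), with adjusted p of 6.6e-07, 7.9e-10 and 4e-16 by limma. *clec-62*, *clec-65* and *clec-66*, neighbours of *clec-63* on chromosome II, were also higher at day 11, by 2.03, 1.25 and 1.30 on the log2 scale.

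Tissue markers moved at the same age. Of 6 intestine markers 5 were higher under *cco-1* RNAi at day 11 and none lower, with a summed level of 199 to 263 CPM under *cco-1* RNAi and 96.4 to 111 CPM in ev. All 6 body wall muscle markers were higher, with sums of 524 to 1010 CPM under *cco-1* RNAi and 128 to 157 CPM in ev, as were 4 of the 5 pharynx markers tested, 3 of 6 oocyte markers, 2 of 3 coelomocyte markers, 2 of 6 neuron markers and 1 of 6 hypodermis markers. No germline or sperm marker was called, and 1 neuron marker was lower. No marker of any list was at 0 in any library, but no deposited value of any gene was 0, so this does not show detection. The part of these tissue differences in the lectin counts was not tested.

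A group of 15 members changed sides: they were lower under *cco-1* RNAi at day 1 and higher at day 11 (*clec-7*, *clec-26*, *clec-36*, *clec-41*, *clec-49*, *clec-51*, *clec-52*, *clec-54*, *clec-84*, *clec-146*, *clec-165*, *clec-186*, *clec-187*, *clec-218* and *clec-223*), and 0 members did the reverse. Of all genes tested 1.99% were lower at day 1 and higher at day 11, beside 12.3% of the members, and 0.477% did the reverse. These calls define the group, so its summed values are a description. Together the 15 summed to 419, 511, 519, 526, 272 and 287 CPM at days 1 to 11 under *cco-1* RNAi, and to 1116, 963, 740, 675, 197 and 101 CPM in ev. The ev sum was lower at each later age, while that of *cco-1* RNAi lay between 419 and 526 CPM up to day 7.

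Among them *clec-41* showed the widest swing. At day 1 it had 131, 131 and 130 CPM under *cco-1* RNAi, against 559, 514 and 545 CPM in ev (log2 difference -2.04 ± 0.14), and at day 11 it had 97.6, 56.1 and 86 CPM under *cco-1* RNAi, against 23.7, 23.9 and 23.5 CPM in ev (1.67 ± 0.14). The libraries did not overlap at either age. *clec-52* had 49.4, 46 and 45.8 CPM under *cco-1* RNAi at day 1, against 121.7, 117.1 and 116.9 CPM in ev, but was already higher at day 5 with 97, 113 and 103 CPM, against 72.1, 70.3 and 69.5 CPM in ev. *clec-49*, which contributes to defence against Serratia, crossed earlier still, with 26, 30.1 and 26 CPM at day 1 under *cco-1* RNAi, against 67.5, 71.1 and 69.7 CPM in ev, and 33.4, 32.7 and 34.9 CPM at day 3, against 23.3, 21.3 and 22.6 CPM. For *clec-146* the call at day 1 (-0.61 ± 0.19, adjusted p = 0.0145) was lost without ev replicate 3 or without *cco-1* RNAi replicate 2. The call of *clec-187* at day 1 was lost without ev replicate 3, at a log2 difference of -0.46.

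**Figure D3:**
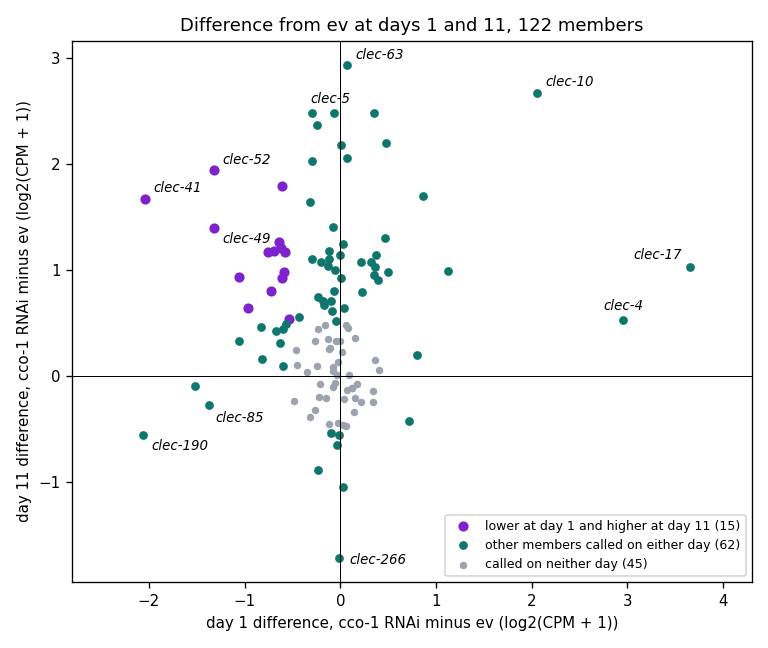
Difference of each member between *cco-1* RNAi and ev at day 1 (x axis) and at day 11 (y axis), as *cco-1* RNAi minus ev on the log2(CPM + 1) scale. The 15 members lower at day 1 and higher at day 11 (purple) fill the upper left, *clec-63* is near 0 at day 1 and highest at day 11, and *clec-4* and *clec-17* lie far to the right.

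Only *clec-10*, *clec-17* and *clec-76* were higher under *cco-1* RNAi at all 6 ages (2.46% of the members, beside 0.624% of all genes tested). *clec-10* had 67, 65.4 and 64.1 CPM at day 1, against 13.7, 14.7 and 16.8 CPM in ev, and 10.7, 7.63 and 8.49 CPM at day 11, against 0.809, 0.702 and 0.193 CPM in ev. It therefore fell with age in both treatments while the gap stayed between 2.05 and 2.68 on the log2 scale. *clec-17* had 28.4, 27.7 and 32.2 CPM at day 1 under *cco-1* RNAi, against 1.38, 1.35 and 1.48 CPM in ev, a log2 difference of 3.66 ± 0.12 (adjusted p = 1.3e-24), and the difference was 1.03 ± 0.12 at day 11. *clec-76* was low throughout, with group means of 1.35 to 4.93 CPM under *cco-1* RNAi and 0.126 to 0.965 CPM in ev. It reached 1 CPM in all 18 libraries of *cco-1* RNAi and in 1 of ev, so it was kept only through the treatment in which it was higher.

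The gene with the most reads among those higher at day 1 was *clec-265*, with 219 ± 7.38 CPM under *cco-1* RNAi and 120 ± 4.27 CPM in ev (SD, n = 3 each). *clec-4* had 110, 114 and 108 CPM at day 1 under *cco-1* RNAi, against 13.6, 13.3 and 13.4 CPM in ev, a log2 difference of 2.95 ± 0.10 (adjusted p = 4.4e-25). The gap narrowed quickly: at day 5 the libraries overlapped, with 11.5, 10.8 and 11.7 CPM under *cco-1* RNAi, against 11.5, 10.9 and 10.7 CPM in ev. Tissue markers differed at day 1 as well. Of the hypodermis markers 5 of 6 were higher under *cco-1* RNAi, with sums of 1590 to 1690 CPM, against 1370 to 1390 CPM in ev. The intestine markers summed to 1930 to 1990 CPM under *cco-1* RNAi, against 1480 to 1510 CPM in ev, with *ifb-2* called higher (0.83 on the log2 scale) and *elt-2* lower (-0.63). No marker of the other lists was called at day 1, and the part of these tissues in the lectin differences was not tested.

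Some members built up a difference in mid-adulthood. *clec-5* had 30.8, 34.6 and 33.2 CPM at day 1 under *cco-1* RNAi, against 36, 34 and 33.3 CPM in ev, and 42.7, 38.5 and 41.9 CPM at day 11, against 6.83, 6.46 and 6.25 CPM in ev (log2 difference 2.48 ± 0.09, adjusted p = 8.6e-23). It was called from day 5 on. *clec-42* was higher at 5 ages and averaged 2.17, 3.28, 7.36, 7.66, 6.06 and 7.23 CPM at days 1 to 11 under *cco-1* RNAi, against 1.28, 0.904, 1.55, 0.917, 0.522 and 0.797 CPM in ev. *clec-48* was higher from day 3 on, when it had 69.2, 67.1 and 67.4 CPM, against 20.6, 22.8 and 22 CPM in ev, although at day 1 it had 68.5, 75.2 and 74.1 CPM, against 87.4, 90.8 and 90.1 CPM in ev.

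Markers of several tissues also differed at these ages. All 6 body wall muscle markers were higher under *cco-1* RNAi at days 3, 5 and 7, with a mean sum at day 5 of 2260 CPM under *cco-1* RNAi and 947 CPM in ev. The summed hypodermis markers averaged 243 CPM under *cco-1* RNAi and 68.7 CPM in ev at day 5, where *col-19* was called higher and *dpy-7* lower. The summed intestine markers averaged 609 CPM under *cco-1* RNAi and 448 CPM in ev, with *vha-6* called higher and *ges-1* lower. Of the other lists at day 5, 3 of 6 sperm, 1 of 6 neuron and 1 of 3 coelomocyte markers were higher, and no germline, oocyte or pharynx marker was called. At day 3, however, the pharynx markers *myo-1*, *myo-2*, *tnc-2* and *tni-4* were called higher and the oocyte marker *cbd-1* lower. At day 7 the pharynx marker *tnc-2* and the oocyte markers *puf-5* and *egg-1* were called higher. The part of these tissues in the lectin differences at days 3 to 7 was not tested.

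Fewer members were lower under *cco-1* RNAi over most of adult life. *clec-190* was lower at all 6 ages (0.82% of the members, beside 0.121% of all genes tested), and *clec-67*, *clec-85*, *clec-186*, *clec-196* and *clec-266* at 5. *clec-85*, whose transcription depends on the p38 kinase PMK-1, had 66, 72.7 and 69.8 CPM at day 1 under *cco-1* RNAi, against 186, 183 and 176 CPM in ev. At day 7 it had 17.4, 19.2 and 20.2 CPM, against 117, 114 and 111 CPM in ev, a log2 difference of -2.53 ± 0.11 (adjusted p = 1e-18). At day 11, with both treatments at 3.11 to 6.31 CPM, it was no longer called. *clec-67* was lower at days 1 to 9, with 13.4, 12.6 and 12.7 CPM at day 7 under *cco-1* RNAi, against 32, 35.4 and 32.4 CPM in ev, and its call ended at day 11, when it averaged 2.14 CPM under *cco-1* RNAi and 1.28 CPM in ev.

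*clec-266* and *clec-196* started near 1 to 2 CPM in both treatments and then rose more in ev. *clec-266* had 57, 55 and 55.6 CPM at day 7 under *cco-1* RNAi, against 502, 446 and 447 CPM in ev, a log2 difference of -3.03 ± 0.12 (adjusted p = 7.7e-18). It shares 371 bp of exon with *kqt-1*, a potassium channel gene. *clec-196* was highest at day 3 under *cco-1* RNAi, with 15.5, 13.1 and 16.8 CPM, and at day 5 in ev, with 64.7, 72.4 and 64.7 CPM. *clec-190* had 1.62, 1.35 and 1.43 CPM at day 1 under *cco-1* RNAi, against 8.95, 10.2 and 8.67 CPM in ev, and 16.1, 14.3 and 19.2 CPM at day 3, against 69, 57.7 and 60.8 CPM. At day 11 the *clec-190* libraries overlapped, with 5.74, 2.18 and 3.9 CPM under *cco-1* RNAi, against 5.6, 6.09 and 6.18 CPM in ev, and the call was lost without *cco-1* RNAi replicate 2 (log2 difference -0.27, adjusted p = 0.069 by limma).

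**Figure D4:**
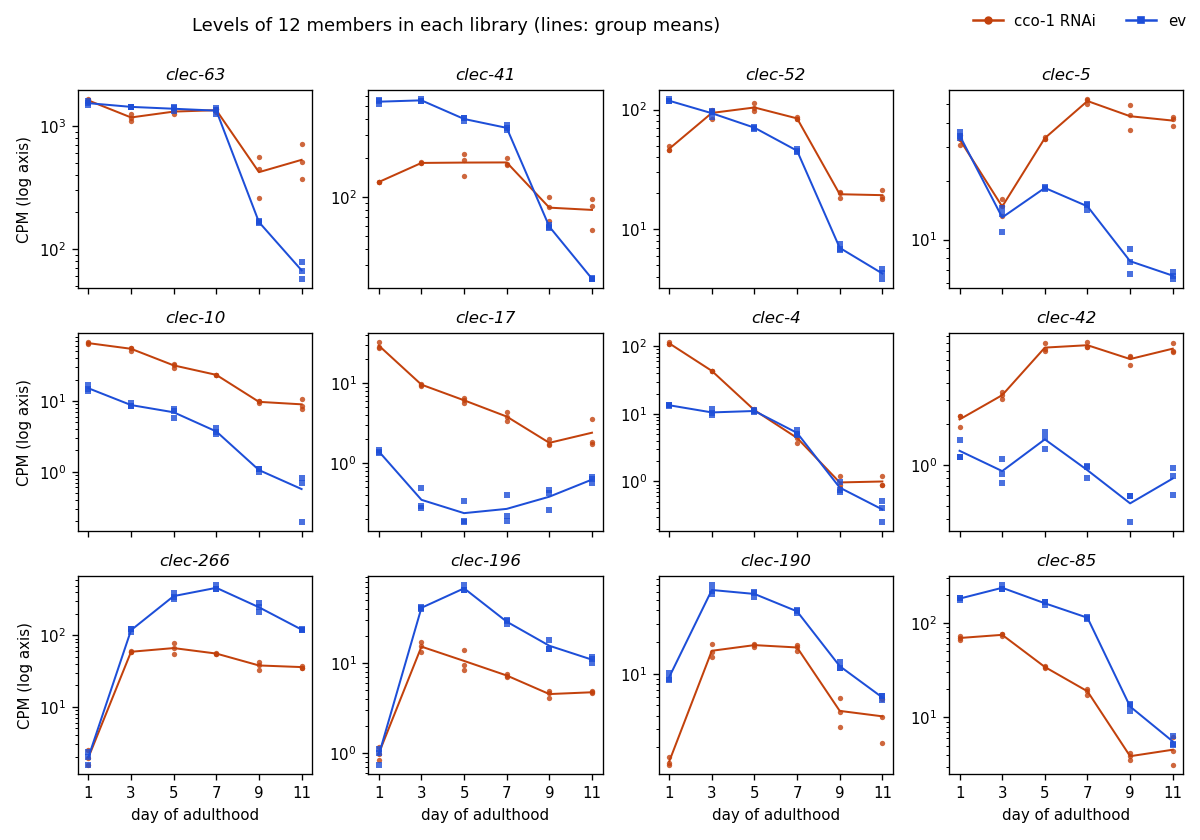
CPM (log axis) of 12 members at each day of adulthood in every library of *cco-1* RNAi (orange circles) and ev (blue squares), with lines through the group means. In the top row the late fall is shallower under *cco-1* RNAi, in the middle row *cco-1* RNAi starts or stays higher, and in the bottom row *clec-266*, *clec-196*, *clec-190* and *clec-85* are lower under *cco-1* RNAi over most of adult life.

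With age alone, more lectins were lower than higher in both treatments. Under *cco-1* RNAi, 53 members were lower and 21 higher at day 11 than at day 1, where 23.7% of all genes tested were lower and 34.1% higher. In ev, 77 were lower and 20 higher, where 27.4% of all genes were lower and 41.8% higher. The median age change of the members was -0.25 under *cco-1* RNAi and -0.76 in ev on the log2 scale, beside 0.18 and 0.31 over all genes tested. All 6 hypodermis and 6 body wall muscle markers and the 5 pharynx markers tested were lower at day 11 in both treatments as well, with 5 of 6 intestine markers under *cco-1* RNAi and all 6 in ev. The summed intestine markers stood at 199 to 263 CPM at day 11 and 1930 to 1990 CPM at day 1 under *cco-1* RNAi, and at 96.4 to 111 CPM at day 11 and 1480 to 1510 CPM at day 1 in ev. How much of the lectin change with age went with these tissues was not tested.

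The difference between the age changes was tested as an interaction. The change from day 1 to day 11 was more positive under *cco-1* RNAi than in ev for 70 members and more negative for 11, where 17.2% and 18.1% of all genes tested were called. The median over members was 0.65 on the log2 scale, beside -0.10 over all genes. The 2 age comparisons and this one share the same libraries. Of the 77 members lower with age in ev, 57 had a positive interaction, 4 a negative one (*clec-4*, *clec-17*, *clec-72* and *clec-180*), and 16 neither. The ev change is subtracted in the interaction, so a fall in ev favours a positive value in any gene. The matching share over all genes lower with age in ev was not counted, so this split is a description. The largest positive values were 3.71 ± 0.20 for *clec-41*, 3.26 ± 0.10 for *clec-52*, 2.86 ± 0.26 for *clec-63* and 2.78 ± 0.19 for *clec-48* (SE). *clec-7* was lower with age in ev and higher with age under *cco-1* RNAi, with a mean of 7.39 ± 1.55 CPM at day 11 and 2.39 ± 0.353 CPM at day 1 under *cco-1* RNAi, and of 2.69 ± 0.318 CPM at day 11 and 4.72 ± 0.462 CPM at day 1 in ev (SD, n = 3 each). *clec-82* and *clec-190* were called in the same opposite ways.

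In both treatments 11 members were higher at day 11 than at day 1 (9.02% of the members, beside 30% of all genes tested). They included *clec-87*, *clec-88* and *clec-91*, which *cco-1* RNAi did not change past the threshold at any age. *clec-87* averaged 371, 816, 885, 835, 667 and 713 CPM at days 1 to 11 under *cco-1* RNAi, and 378, 998, 898, 808, 672 and 650 CPM in ev. With the fall of the other members, these 3 genes came to hold 39.4% of the summed lectin CPM at day 11 under *cco-1* RNAi and 59.9% in ev, beside 11.6% and 10.3% at day 1. The summed oocyte markers were also higher after day 1, at 4530 to 5350 CPM at day 11 and 1990 to 2160 CPM at day 1 under *cco-1* RNAi, and at 3920 to 4140 CPM at day 11 and 2270 to 2310 CPM at day 1 in ev. Whether these 3 lectins are carried by oocytes here was not tested. *clec-146* rose with age in both, and had 176, 88.9 and 126 CPM at day 11 under *cco-1* RNAi, against 52.1, 53 and 55.9 CPM in ev.

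The shape of the time course was compared as the mean of days 5 and 7 against the mean of days 1 and 11. Under *cco-1* RNAi, 41 members were higher in mid-adulthood and 17 lower (14% and 13.8% of all genes tested), and in ev 49 were higher and 20 lower (19.4% and 15.9%). The median difference was 0.26 under *cco-1* RNAi and 0.34 in ev, beside 0.08 and 0.02 over all genes. In both treatments 27 members were higher in mid-adulthood and 14 lower, which is 22.1% and 11.5% of the members, beside 8.76% and 11.4% of all genes tested. The share lower was thus near that of all genes, and the 14 are described below as single genes, not as a trait of the lectins. In ev the largest rises in mid-adulthood were those of *clec-266* (4.42 ± 0.08), *clec-196* (3.23 ± 0.08) and *clec-190* (2.52 ± 0.12; SE on the log2 scale).

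The 14 members called lower in mid-adulthood in both treatments were *clec-17*, *clec-73*, *clec-79*, *clec-117*, *clec-119*, *clec-123*, *clec-151*, *clec-152*, *clec-153*, *clec-154*, *clec-155*, *clec-175*, *clec-236* and *clec-260*. They summed to 237, 53.1, 45.1, 54.9, 137 and 142 CPM at days 1 to 11 under *cco-1* RNAi, and to 184, 28, 17.4, 48.2, 126 and 155 CPM in ev. In *clec-73* the levels at day 5 were 10.7, 10.8 and 11 CPM under *cco-1* RNAi, against 4.53, 4.83 and 4.58 CPM in ev, a log2 difference of 1.06 ± 0.08 (adjusted p = 7.8e-14). At day 1 *clec-73* had 58.2, 65 and 61.6 CPM, against 55.9, 58 and 59.2 CPM in ev, and at day 11 it had 43.1, 34.5 and 38.9 CPM, against 39.4, 37.8 and 38 CPM. The dip at day 5 was thus shallower under *cco-1* RNAi, and so it was in *clec-79*, *clec-119*, *clec-123* and *clec-151*.

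Sperm markers followed a similar course. The 6 markers, among them the sperm phosphatases *gsp-3* and *gsp-4*, summed to 370, 69.7, 69.2, 94.3, 231 and 249 CPM at days 1 to 11 under *cco-1* RNAi, and to 313, 39.4, 36.7, 86.2, 199 and 241 CPM in ev. All 6 were lower in mid-adulthood in both treatments, and 3 of 6 were higher under *cco-1* RNAi than in ev at day 5. The part of sperm in the levels of these lectins was not tested. *clec-17* stood apart from the other 13, since under *cco-1* RNAi it fell until day 9 and so did not dip in mid-adulthood. There it averaged 2.41 CPM at day 11 and 29.4 CPM at day 1, and in ev it stood at 44.5% of day 1 at day 11.

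**Figure D5:**
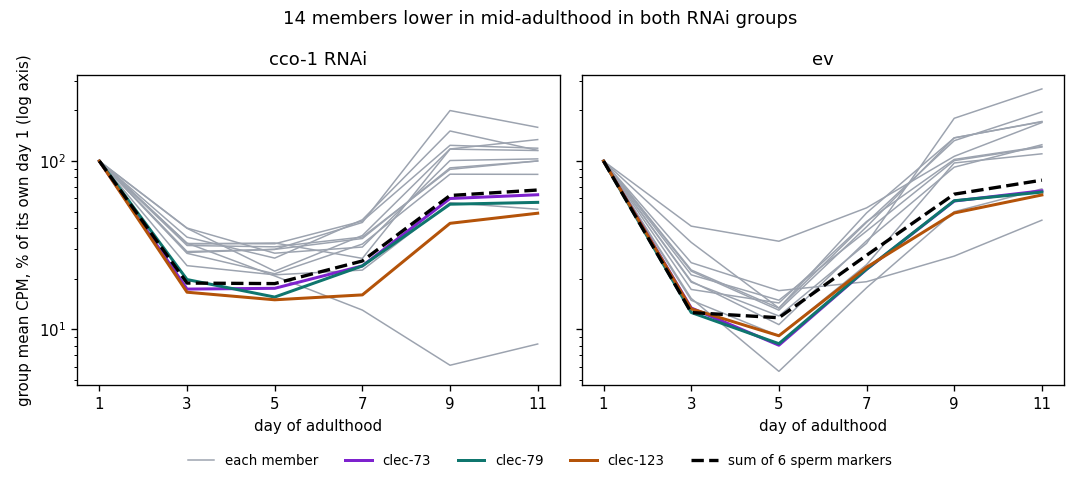
Group mean CPM as a percentage of the same gene's day 1 mean (log axis) at each day of adulthood, for the 14 members lower in mid-adulthood in both treatments (grey, with *clec-73*, *clec-79* and *clec-123* coloured) and for the summed CPM of 6 sperm markers (dashed), with *cco-1* RNAi on the left and ev on the right. The lines drop by day 3, are lowest at days 3 to 7 and stand at 42.7% or more of day 1 at day 9, except for *clec-17*, which is at 6.12% under *cco-1* RNAi and 27.2% in ev.

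A list of 20 lectins known from infection studies held 18 members. Of these, 2 were higher and 7 lower under *cco-1* RNAi at day 1, and 13 were higher and 0 lower at day 11, with a median log2 difference of -0.02 at day 1 and 1.21 at day 11. At day 1, 6.56% of all members were higher and 21.3% lower, beside 4.63% and 4.46% of all genes tested. At day 11 the shares were 47.5% and 5.74% of all members, beside 15.1% and 13.3% of all genes. Whether the list differs from the other members was not tested. Under *cco-1* RNAi 11 of the 18 were lower at day 11 than at day 1 and 4 were higher, with a median of -1.45. In ev the median was -3.55, with 15 lower and 1 higher. Under *cco-1* RNAi 43.4% of all members were lower with age and 17.2% higher, beside 23.7% and 34.1% of all genes tested. In ev these shares were 63.1% and 16.4% of all members, beside 27.4% and 41.8% of all genes. The largest falls in ev were those of *clec-67* (-5.79 ± 0.08) and *clec-49* (-5.33 ± 0.12; SE on the log2 scale). The member of the list higher with age in ev was *clec-60*, a gene induced by Staphylococcus aureus, which averaged 7.38 ± 1.96 CPM at day 11 and 2.01 ± 0.251 CPM at day 1 under *cco-1* RNAi, and 3.05 ± 0.287 CPM at day 11 and 1.34 ± 0.135 CPM at day 1 in ev (SD, n = 3 each).

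Genes of pathways known to act on lectin expression were counted too. Of 6 genes of the p38 PMK-1 pathway none was called at day 1, 3 or 11, while 4 were lower under *cco-1* RNAi at day 5, 3 at day 7 and 2 at day 9. Of all genes tested 16.6%, 13% and 8.69% were lower at these 3 ages. The genes were *tir-1* and *sek-1* at days 5, 7 and 9, *vhp-1* at days 5 and 7, and *nsy-1* at day 5. *pmk-1* itself was not called at any age. These counts do not separate genes that raise the activity of the pathway from genes that lower it, and that activity was not tested. *tir-1*, the adaptor at the top of the cascade, averaged 148 CPM at day 5 under *cco-1* RNAi and 480 CPM in ev, a log2 difference of -1.69 ± 0.08. Under *cco-1* RNAi 1 of the 6, and in ev 5 of the 6, were higher in mid-adulthood than at days 1 and 11. Of all genes tested 14% were higher in this way under *cco-1* RNAi and 19.4% in ev. The difference between the treatments in this shape was not tested. Among 8 immune transcription factors, *elt-2*, the main GATA factor of the intestine, averaged 18.8 CPM under *cco-1* RNAi and 29.6 CPM in ev at day 1, and 13.2 CPM under *cco-1* RNAi and 6.29 CPM in ev at day 11. It was called lower at day 1 and higher at days 9 and 11. *hlh-30*, *pqm-1* and *elt-7* were also higher at day 11, and no factor was lower at that age. Earlier, *zip-2* was called lower at day 7, with a mean of 514 CPM under *cco-1* RNAi and 966 CPM in ev. It was also lower at day 9, with 353.5 and 543.8 CPM, when *hlh-30* was higher. The 8 factors summed to a mean of 1290 CPM under *cco-1* RNAi and 1810 CPM in ev at day 5, when *skn-1*, *daf-16*, *elt-2* and *pqm-1* were not called. At day 7 the sums were 1240 CPM under *cco-1* RNAi and 1660 CPM in ev, a gap no wider than that of *zip-2* alone. The lower sum at day 7 is thus not a trait shared by the 8 factors. *elt-2* is also one of the 6 intestine markers above.

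The galectins, a lectin family with another fold, offered a comparison. Of 12 genes, 9 were higher and 0 lower under *cco-1* RNAi at day 11, where 15.1% and 13.3% of all genes tested were called. Their median log2 difference was 0.95, beside 0.47 for the C-type lectins. The 2 medians are not alike in level. In every group 51 C-type lectins stayed below 5 CPM, where log2(CPM + 1) understates differences, and of the galectins only *lec-7* did. Under *cco-1* RNAi 6 of the 12 were lower and 1 higher at day 11 than at day 1, and in ev 10 were lower and none higher. Over all genes tested 23.7% were lower and 34.1% higher with age under *cco-1* RNAi, and 27.4% and 41.8% in ev. At day 1, 2 were lower under *cco-1* RNAi and none higher. Whether the 2 families differ was not tested.

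Of the members, 27 lay in 6 tandem clusters of at least 4 with at most 1 other protein-coding gene between neighbours. In the cluster of *clec-62*, *clec-63*, *clec-65* and *clec-66* on chromosome II (12893062 to 12906644) all 4 were higher under *cco-1* RNAi at day 11, all 4 were lower with age in ev, and all 4 had a positive interaction. Of all members 47.5%, 63.1% and 57.4% were called in these ways, beside 15.1%, 27.4% and 17.2% of all genes tested. The comparisons share libraries, so they are not separate results. The longest cluster, *clec-72* to *clec-76* and *clec-79* on chromosome IV (3944816 to 3975721), was mixed: 2 members were higher and 1 lower at day 1, 5 of 6 were higher at day 5 and 2 at day 11. Its members with the most reads, *clec-73* and *clec-79*, belong to the group that dips in mid-adulthood, while its neighbour *clec-76* was higher at every age. In the cluster of *clec-165*, *clec-166*, *clec-167*, *clec-169* and *clec-170* on chromosome IV (1245171 to 1274425), *clec-166* and *clec-169* had the most reads, 2 of 5 members were lower at day 1 and 2 were higher at day 11. In the cluster of *clec-94*, *clec-96*, *clec-97* and *clec-99* on chromosome I (11146448 to 11158833), *clec-97* and *clec-94* had the most reads and 3 of 4 members were higher at day 11. The 2 other clusters, of 4 members each, also had 3 members higher at day 11 and none lower. At day 1, 6.56% of all members were higher and 21.3% lower, beside 4.63% and 4.46% of all genes tested. At day 5, 35.2% of all members were higher, beside 16.7% of all genes. Whether any cluster differs from the other members was not tested. Neighbouring lectins are similar in sequence, and the files give no measure of reads that could belong to more than 1 of them.

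The 74 clec rows that did not reach the level of the rule had a highest library value of 1.53 CPM. Fitted without the filter, between 0 and 5 of them were called at any one age of the comparison with ev, and 15 in the comparison of day 11 with day 1 in ev, of which 11 were lower.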

How the data were processed

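Whole-worm polyA RNA was sequenced on the BGISEQ-500 platform in 36 libraries (12 groups of 3). Per the labels and the study's methods, the authors mapped reads with STAR to WBcel235 and counted uniquely mapped reads per gene with htseq-count, without strand. The submitters' processing notes name STAR 2.73a and edgeR 3.24.3. The deposited values, called normalized counts in the file's key, behave as CPM that the authors quantile-normalized: the tenth highest value was 3019 CPM in every library, and no value was 0. Raw depth cannot be recovered, so no count test was run, and the planned count test with DESeq2 was left out. The deposited columns with the authors' own fold changes and p-values, and a table of their gene set enrichment scores, were not used.

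The 15713 of 18949 genes that reached 1 CPM in 3 or more libraries were fitted with limma 3.58.1 in R 4.3.3 on log2(CPM + 1), with 1 mean per group, all 36 libraries, a trended and robust prior and 24 residual degrees of freedom. Fold changes on this scale understate those of low genes. P-values were adjusted by Benjamini-Hochberg over all genes tested, and errors of differences are standard errors. The fit was tested on simulated data before use. Values per kilobase used exon lengths of the Ensembl annotation of WBcel235, in which all members were found.

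No label ties libraries with the same replicate number to a shared batch. Deviations of same-numbered libraries from their group means had a median correlation of -0.01 over 198 pairs (range -0.28 to 0.66), so the fit has no block. The exceptions include *cco-1* RNAi at days 9 and 11, where over the members the deviations of the same-numbered libraries correlated at 0.64 (replicate 1), 0.69 (replicate 2) and -0.23 (replicate 3), and a shared batch there was not tested. Alternatives changed the pseudocount, filter, threshold, scaling, variance model, samples in the fit and replicates. The text names the 8 members with the highest mean, the 4 largest called changes in each direction per comparison with at least 5 CPM and no overlap (not asked of the interaction and mid-adulthood comparisons), members called alike at all 6 days or in opposite ways at days 1 and 11, and *clec-76*. *clec-60*, *clec-62*, *clec-65*, *clec-72*, *clec-82* and members listed beside a count were added after their values were seen. Members and gene lists were chosen with earlier results of these data known. Protein and promoter sequences were not used here. Figures were drawn with matplotlib 3.10.9.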

Additional observations from a re-analysis of the deposited data

Results flagged for a closer look

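The change with age differed between *cco-1* RNAi and ev for many lectins by a direct test of the difference (the interaction in the limma fit; *cco-1* RNAi minus ev, day 11 minus day 1). It was positive for 70 members and negative for 11, where 17.2% and 18.1% of all genes tested were called. A member called lower at day 1 and higher at day 11 has a positive value by those calls alone, so there it is no separate support. Among those listed next this holds for *clec-41*, *clec-52*, *clec-49*, *clec-223*, *clec-186*, *clec-7*, *clec-84*, *clec-218*, *clec-146*, *clec-187* and *clec-51*. The positive values of single members on the log2 scale were 3.71 for *clec-41*, 3.26 for *clec-52*, 2.86 for *clec-63*, 2.78 for *clec-48*, 2.71 for *clec-49*, 2.40 for *clec-223*, 1.99 for *clec-186*, 1.93 for *clec-7*, 1.90 for *clec-84*, 1.87 for *clec-218*, 1.83 for *clec-146*, 1.75 for *clec-187* and 1.60 for *clec-51*. The negative ones were -2.63 for *clec-17*, -2.43 for *clec-4*, -1.70 for *clec-266* and -1.14 for *clec-180*. Neither list is complete or a full ranking. Both hold the 4 largest values among members with at least 5 CPM, and the positive one adds members called in opposite ways at days 1 and 11. In *clec-4* and *clec-17* the level at day 1 was the higher one under *cco-1* RNAi, whereas in *clec-266* the libraries overlapped at day 1, with 2.46, 1.90 and 1.52 CPM under *cco-1* RNAi and 2.02, 1.56 and 2.38 CPM in ev.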

How the results depend on the processing

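No result changed direction under any alternative. Counts of called members moved past 1.5 times only with the threshold, the pseudocount or a higher filter. With a log2 threshold of 1, the members higher and lower under *cco-1* RNAi were 4 and 8 at day 1, 7 and 11 at day 3, 14 and 11 at day 5, 15 and 8 at day 7, 15 and 4 at day 9, and 35 and 2 at day 11. The age comparisons then gave 11 higher under *cco-1* RNAi and 8 higher in ev, the interaction 42 and 5, and mid-adulthood 18 and 11 under *cco-1* RNAi and 27 and 12 in ev. With a pseudocount of 5 the same counts were 5 and 13, 7 and 10, 19 and 11, 17 and 12, 15 and 4, and 31 and 2 by day. The age comparisons gave 12 higher under *cco-1* RNAi, and 13 higher and 48 lower in ev, the interaction 39 and 5, and mid-adulthood 25 higher under *cco-1* RNAi and 27 and 13 in ev. With a pseudocount of 0.1 there were 23 higher at day 3, 50 higher at day 9, 13 lower at day 11 and 32 higher with age under *cco-1* RNAi. With a filter of 5 CPM there were 13 lower at day 3, 28 higher at day 5, 48 lower with age in ev and 11 lower in mid-adulthood in ev, since fewer members were tested. With no threshold on the log2 difference there were 18 higher at day 1, 34 higher and 35 lower at day 3, 49 higher at day 7, 53 higher and 13 lower at day 9 and 18 lower at day 11. The same setting gave 37 higher with age under *cco-1* RNAi, 18 negative interactions, 66 higher in mid-adulthood under *cco-1* RNAi and 31 lower in ev.

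Adding the replicate number as a block left every count as it was, with 58 higher and 7 lower at day 11. Leaving out 1 library at a time gave 7 to 10 higher and 24 to 27 lower at day 1, 12 to 15 and 20 to 23 at day 3, 42 to 45 and 21 to 25 at day 5, 28 to 36 and 17 to 21 at day 7, 27 to 44 and 7 to 8 at day 9, and 57 to 60 and 7 to 9 at day 11. With age it gave 21 to 24 higher and 51 to 54 lower under *cco-1* RNAi and 20 to 21 and 77 to 80 in ev. The interaction gave 67 to 71 and 11 to 13, and mid-adulthood 40 to 44 and 17 to 17 under *cco-1* RNAi and 47 to 49 and 18 to 20 in ev. *clec-190* at day 11 also lost its call when only the groups compared were fitted (adjusted p = 0.08, limma), whereas with the block it was 0.0022. Over the members named by the rule, other settings than leaving out a library ended the call in 32 comparisons and gave a call in 2. The planned count test with DESeq2 was not run, because the deposited values are not counts. Because the deposited values carry no read depth, the counting error of members near 1 CPM is unknown.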
